A study of Mus musculus with 4 samples.

Results

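Among thymic invariant natural killer T (iNKT) cells of the type 1 kind (iNKT1), the cells described here were those that carried Atp8a2, Cd226 and 5 more genes and few genes of an alternative set. A cell had to carry at least 1000 unique molecular identifiers (UMIs, each 1 counted transcript molecule), at least 500 genes and under 10% mitochondrial UMIs. It also had to have at least 1 UMI of Nkg7, a granule membrane protein of cytotoxic cells, no UMI of Cd79a or Rag1, and at most 2 of the mitotic genes Mki67, Top2a, Birc5 and Ube2c. These conditions gave a gate of 26117 cells. Within it, a set A cell had at least 3 genes detected of Atp8a2, Cd226, St6galnac3, Setbp1, Adam19, Kcnq5 and Tex2, and at least 2 more of them than of Sidt1, Fgf13, Dgkh, Gas7, Slc35f3, Tmem163 and Maml2 (set B). There were 6765 set A cells among the 30455 barcodes deposited, or 22.2%. They numbered 2039 in WT 1, 2202 in WT 2, 1441 in ACC1 KO 1 and 1083 in ACC1 KO 2. The mirror of the rule, with the sets exchanged, gave 5907 set B cells, and the other 13445 cells of the gate met neither rule.

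The cells came from thymi of mice 6 to 8 weeks old, enriched on magnetic beads with the CD1d tetramer and then sorted as CD3+ and CD1d tetramer+. The WT group was wild type and the ACC1 KO group was labelled a knockout of ACC1, the acetyl-CoA carboxylase encoded by Acaca whose product malonyl-CoA feeds fatty acid synthesis. There were 2 libraries of each genotype, numbered 1 and 2, made with a 10x Genomics 3′ kit. The sources used here do not name the driver of the deletion, the strain or the deleted part of the gene, nor say whether a library was 1 animal.

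As background, iNKT cells mature in the thymus into iNKT1, iNKT2 and iNKT17 cells, which are known for interferon-γ, IL-4 and IL-17 in that order. Mature iNKT1 cells gain natural killer receptors of the Ly49 and NKG2 families, chemokines and granzymes. The set A genes have unlike products. Atp8a2 encodes a P4-ATPase that moves phospholipids between membrane leaflets, Cd226 (DNAM-1) is an activating receptor for CD155 and nectin-2, St6galnac3 is a sialyltransferase, Adam19 a membrane protease, Kcnq5 a voltage-gated potassium channel, Setbp1 a nuclear protein that binds SET, and Tex2 a membrane protein. In set B, Sidt1 is a transmembrane protein related to RNA transporters, Fgf13 an intracellular fibroblast growth factor homologue, Dgkh a diacylglycerol kinase and Maml2 a Notch coactivator.

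The libraries held 29.1 to 74.2 M UMIs in all, and the sums over set A cells held 10.4 and 15.3 M UMIs in WT 1 and WT 2 and 7.38 and 8.63 M UMIs in ACC1 KO 1 and ACC1 KO 2. The median set A cell held 4671, 6264.5, 4513 and 7244 UMIs in that order. Ddx3y, on the Y chromosome, was found in the libraries numbered 1 (82.5 and 91.8 counts per 1000000 UMIs, CPM) and Xist in those numbered 2 (585 and 613 CPM), so that sex and depth go with the number and cannot be told apart from it. A list of 14 stress and handling genes also went with the number. In set A cells it summed to 2291 and 2551 CPM in the libraries numbered 1 and to 3641 and 4348 CPM in those numbered 2. Values are therefore also given within each number. A pair of libraries shared 10 to 27 barcodes, and 2 of the shared barcodes over all pairs were set A cells in both libraries. Acaca had 33.6, 31.4, 49.6 and 59.4 CPM in set A cells of WT 1, WT 2, ACC1 KO 1 and ACC1 KO 2, which checks nothing about the genotype, since these libraries count 3′ ends and the deleted part is not known. Below, 4 values in a row are in this order of libraries. No label ties a library to its own animal, so p-values measure the spread between these libraries.

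The genes of the rule were read first, as a description without a test, because set A cells were chosen by the detection of these same genes. Cd226 stood at 482, 386, 341 and 275 CPM in set A cells and was detected in 76.7 to 86.2% of them, against 28.7 to 43.0% of set B cells. Atp8a2 stood at 271, 292, 209 and 206 CPM and was detected in 56.7 to 71.0%, against 5.50 to 9.55% of set B cells. Both were among 5 of the 7 set A genes that were lower in the 2 ACC1 KO libraries than in the 2 WT libraries. Tex2 was higher, at 224 and 224 CPM in ACC1 KO against 197 and 182 CPM in WT. These levels are not read as a genotype result, since the rule used the genes. Kcnq5 was detected in 89.8 to 93.1% of set A cells, St6galnac3 in 81.9 to 87.8%, Adam19 in 65.6 to 73.3%, Tex2 in 54.6 to 78.9% and Setbp1 in 29.2 to 38.8%. Among set B genes, Maml2 was still found in 53.5 to 68.6% and Sidt1 in 26.9 to 53.8% of set A cells, while Gas7 was found in 1.91 to 4.25%. The choice was less exclusive for some genes than for others. In Rag1+ cells, immature thymocytes that should lack an iNKT1 gene, Atp8a2 was detected in 4.04 to 11.4% and Nkg7 in 7.07 to 15.7% of cells, at median depths of 2292 to 3485 UMIs. The Atp8a2 share in set B cells lay in the same range. The rule itself keeps that share low, and set B cells were deeper (medians of 4503 to 7122 UMIs), so this does not show that they lack Atp8a2. In cells with a UMI of the B cell marker Cd79a, Setbp1 was detected in 37.3 to 62.2% of cells, as often as in set A cells or more often. Nkg7 was detected in 12.3% of these cells in WT 1, 72.5% in WT 2, 18.7% in ACC1 KO 1 and 42.9% in ACC1 KO 2. The group therefore cannot be read as B cells alone, above all in the libraries numbered 2.

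Many cells lay close to the limit of the rule, on either side of it. Of the set A cells, 2603 (38.5%) had exactly 2 more set A than set B genes and 815 had exactly 3 set A genes, while 3118 cells lay just outside with a difference of 1. Cells at exactly 2 made up 29.3, 40.8, 39.1 and 50.1% of the set A cells. Set A cells had on average 4.82, 5.02, 4.73 and 5.16 set A genes and 1.49, 1.99, 1.65 and 2.31 set B genes. Within each number, ACC1 KO set A cells thus lay nearer the limit and carried more set B genes than WT set A cells. Atp8a2 spans 559 kb of chromosome 14 (59638540 to 60197179, minus strand, mm10), and the set A genes span a median of 359 kb (91.4 to 564 kb) and the set B genes 193 kb, against 29.3 kb for the 5616 genes at 20 CPM or more. Whether reads in introns were counted is not given in the sources used here, and its part in the detection of these long genes was not tested.

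Set A cells carried type 1 markers, while iNKT2 genes were also present. Tbx21, which encodes T-bet, stood at 141, 154, 96.9 and 135 CPM in set A cells and 145, 161, 106 and 165 CPM in set B cells. Il2rb and Klrb1c, the IL-15 receptor β chain and NK1.1, ran at 683, 391, 645 and 363 CPM and at 316, 230.0, 413 and 213 CPM. Counted per cell were 7 of the 16 iNKT1 markers (Tbx21, Il2rb, Klrb1c, Klrd1, Klrk1, Xcl1 and Id2). The median set A cell had 5, 6, 5 and 6 of these detected, and the median set B cell had 6 in each library. At most 0.0490% of the set A cells of a library had none. Every cell of the gate was chosen with an Nkg7 UMI, and no cells outside the gate were counted in this way. These counts are therefore no test of the label. Of all 16 iNKT1 markers, 7 were higher in set A cells and 8 in set B cells in all 4 libraries, and 1 was of mixed sign. Their sum was lower in set A cells, at 6750, 6113, 7102 and 5876 CPM against 10115, 9228, 9848 and 8159 CPM in set B cells. With each cell thinned to 2500 UMIs (59 shallower set A cells left out), the median set A cell had 7 of 16 iNKT1 markers, 2 of 12 iNKT2 markers and 0 of 14 iNKT17 markers in each of the 4 libraries. The median thinned set B cell had 8, 8, 8 and 7 iNKT1 markers, and 1 iNKT2 marker in each library.

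Markers of other cells were near 0 for many genes but not all. In set A cells Pax5 of B cells, Rag2 of immature thymocytes, Eomes of natural killer cells and Trdv4 of γδ T cells had no UMI in any library. Of the 11 markers of immature thymocytes 7 averaged under 1 CPM, and the list summed to 429 to 504 CPM, led by Tcf12 (337 to 420 CPM, 419.6 at most). Of the 12 myeloid markers 8 averaged under 1 CPM, and the list summed to 329 to 375 CPM, led by Fcer1g, Bst2 and Cst3. Of the 7 γδ T cell markers 2 averaged under 1 CPM. That list summed to 425, 327, 188 and 166 CPM, higher in WT than in ACC1 KO, with Tcrg-C1 at 84.0, 70.6, 56.9 and 53.1 CPM and other γ chain genes given with the genotypes. Of the 8 natural killer and innate lymphoid markers 5 averaged under 1 CPM, and the list summed to 19.4 to 25.0 CPM. The part of such cells in the results was not tested. The 12 B lineage markers summed to 161, 98.9, 123 and 96.8 CPM, of which Ighm made 84.2 to 111 CPM. Cd74 and H2-Aa, of antigen-presenting cells, stood apart in WT 1, at 34.5 and 29.5 CPM against 1.62 to 5.15 and 0.131 to 2.85 CPM in set A cells of the other libraries, and their part in the WT 1 values was not tested. Doublet scores marked 3.23 to 4.45% of set A cells.

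Set A cells were next set beside set B cells of the same library, again without a test, as the rule read genes of these cells. Most iNKT2 markers were higher in set A cells, and most Ly49 and natural killer receptors were higher in set B cells. Of 11 iNKT2 markers at 5 CPM or more, 10 were higher in set A cells in all 4 libraries and none was higher in set B cells, with a median log2 ratio of 1.04. Over all 9447 genes at that level, 29.1% were higher in set A cells and 12% in set B cells in all 4 libraries. Of 22 Ly49 and natural killer receptor genes, 18 were higher in set B cells and 1 in set A cells, with a median log2 ratio of -0.66. Cytotoxic genes were divided, with 7 of 18 higher in set B cells, 6 higher in set A cells and 5 of mixed sign (median -0.13). Outside the genes of the rule, 13 genes were at least 2-fold higher in set A cells in every library and 13 were at least 2-fold higher in set B cells, of 5601 at 20 CPM or more.

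Il4, the type 2 cytokine, stood at 98.9, 92.3, 89.4 and 86.8 CPM in set A cells against 17.5, 14.3, 19.4 and 21.4 CPM in set B cells. Zbtb16, which encodes the iNKT factor PLZF, stood at 187, 192, 164 and 217 CPM against 97.0, 102, 70.3 and 80.7 CPM. Every set A value of these genes lay above every set B value. Icos, a costimulatory receptor, stood at 263, 203, 200.1 and 163 CPM against 121, 114, 91.0 and 85.4 CPM. Plac8 stood at 65.5, 28.5, 147 and 67.7 CPM against 2.60, 2.50, 28.4 and 14.9 CPM, and Izumo1r (folate receptor 4) at 98.1, 64.2, 56.1 and 82.4 CPM against 22.3, 11.2, 14.8 and 9.76 CPM. Themis, a T cell selection protein, had a median log2 ratio of 2.07, and Rora, Ramp1, Tesc, Ext1, Pde11a and Ckb had ratios of 1.44 to 2.02. Cd4 was low in set B cells of the WT libraries (4.09 and 7.49 CPM) and stood at 26.8, 32.4, 59.9 and 54.1 CPM in set A cells.

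On the other side, Gzma, the tryptase of cytotoxic granules, stood at 47.9, 123, 135 and 219 CPM in set A cells and at 516, 921, 712 and 1246 CPM in set B cells. The chemokine gene Ccl5 stood at 554, 827, 1205 and 1058 CPM against 3611, 3620 (3619.5), 3814 and 3017 CPM. With cells thinned to 2500 UMIs, Gzma was detected in 3.08, 5.42, 9.34 and 12.3% of set A cells and in 23.7, 34.6, 40.1 and 49.6% of set B cells (unthinned 4.41, 7.86, 12.4 and 17.5%, and 27.7, 42.5, 46.7 and 60.3%). Any Ly49 gene was detected in 47.4 to 59.6% of thinned set A cells and in 75.1 to 89.7% of set B cells. Ly49 genes are close copies of each other, and how reads were split among them is not known. Klra7 and Klri2, an Ly49 and a lectin-like receptor, had median log2 ratios of -1.38 and -1.67, and Fcer1g, the Fc receptor γ signalling chain, had -1.50. Plek, Rap1gap2, Snx9, Prss12, Slc9a7, Wdr95 and Swap70 lay between -1.69 and -1.22.

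**Figure D1:**
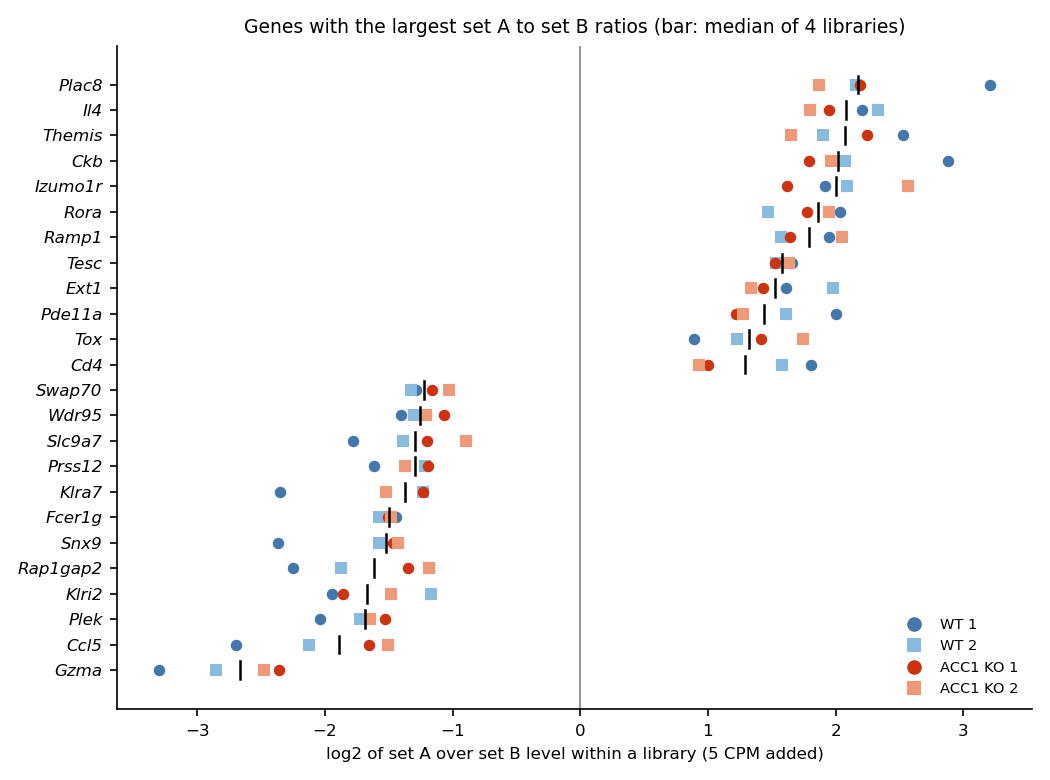
The 24 named genes outside the rule, with the highest and lowest median ratios of set A to set B cells, are plotted by row, each point 1 library and each bar the median, on a log2 scale of CPM with 5 added. The points of each gene lie on one side of 0 in all 4 libraries, from a median of 2.17 for Plac8 to -2.67 for Gzma.

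Transcription factors and homing genes divided in the same description. Runx1 stood at 200.02, 247, 179 and 264 CPM in set A cells and 66.9, 92.1, 94.7 and 117 CPM in set B cells, and Ikzf2 (Helios) at 209, 167, 139 and 179 CPM against 67.3, 75.8, 60.9 and 69.2 CPM. Tox and Maf had median log2 ratios of 1.32 and 0.64, and Il2ra and Tgfbr3, receptor chains for IL-2 and TGF-β, had 1.26 and 1.08. Klf2 stood at 154, 218, 395 and 306 CPM against 765, 540 (539.7), 798 and 551 CPM, and S1pr1, the sphingosine receptor for leaving the thymus and a target of KLF2, at 6.18, 6.73, 15.3 and 12.8 CPM against 44.6, 25.5, 34.1 and 31.2 CPM. Itgae and Itgb1, integrin chains, were also lower in set A cells in all 4 libraries, with median log2 ratios of -0.79 and -0.75. Among relatives of the set A genes, Atp8a1, the closest flippase to Atp8a2, was higher in set A cells in all 4 libraries (median log2 ratio 0.55). Cd96, which shares the ligand CD155 with CD226, did not keep one sign (98.5 to 115 CPM in set A cells), and Tigit stood at 1.62 to 2.99 CPM.

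The levels followed the number of set A genes less set B genes across the whole gate. Il4 had medians over the 4 libraries of 19.6 CPM in cells at -3 or less, 32.9 CPM at 0, 71.4 CPM at 2 and 117 CPM at 4 or more. Gzma ran the other way, from 862 CPM at -3 or less through 514 CPM at 0 to 210 (209.8) CPM at 2 and 31.8 CPM at 4 or more. Runx1 went from 79.4 to 269 CPM and Ccl5 from 4082 to 378 CPM over the same span. The medians of Tbx21 stayed between 134 and 152 CPM. Set A cells just inside the limit thus held far more Gzma than those at 4 or more, and the group covers a range of this score. Each bin pools cells, and the score depends on which genes were detected. A gradual change between cells and a changing mix of cells therefore cannot be told apart here. Cells just outside, at 1, had 46.2 CPM of Il4 and 338 CPM of Gzma. Bins of the score held 234 to 1719 cells of a library.

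**Figure D2:**
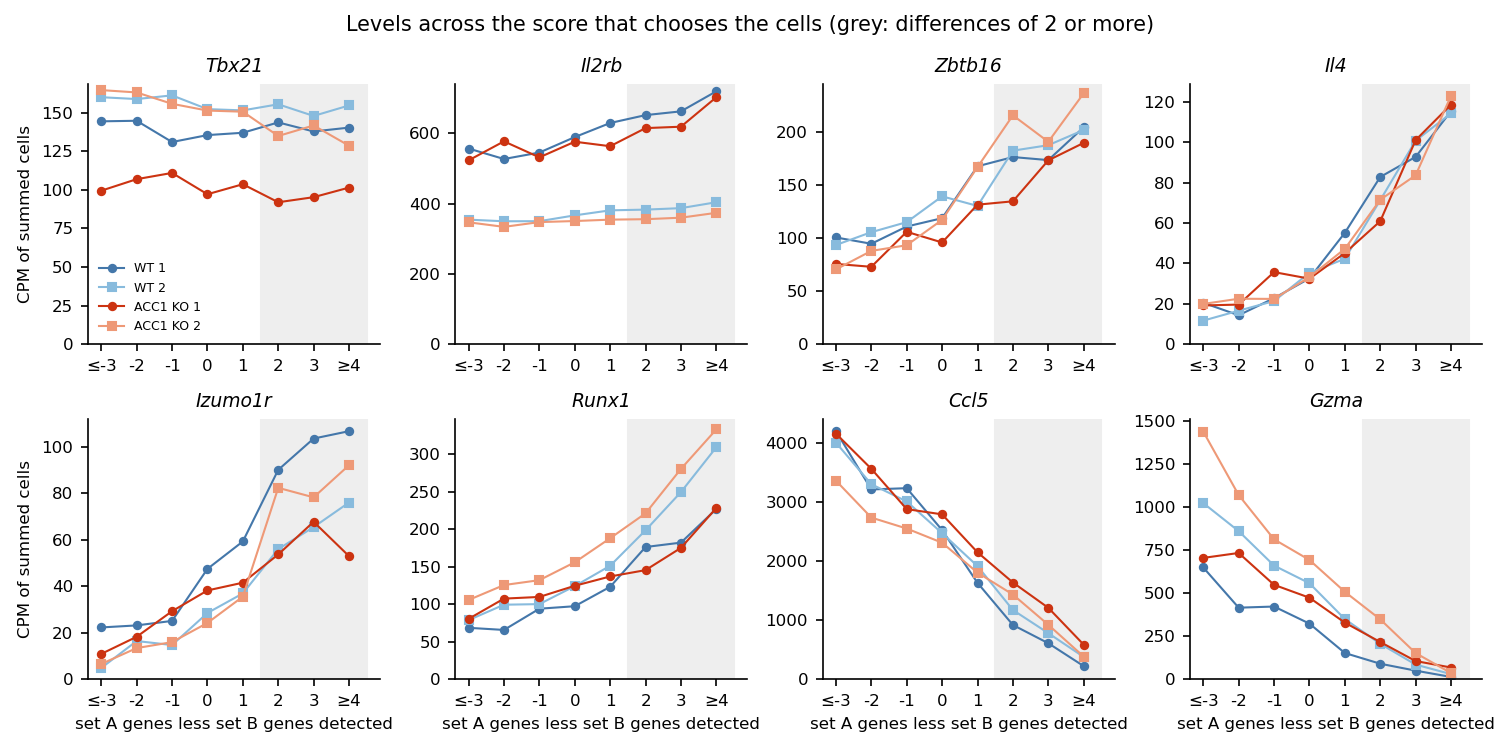
Each panel gives the CPM of 1 gene (vertical axis, from 0) in cells binned by the number of set A genes less set B genes detected (horizontal axis), with 1 line per library. Set A cells lie in the grey zone. Il4, Zbtb16, Izumo1r and Runx1 are higher at the right than at the left in every library, Ccl5 and Gzma are lower, and Tbx21 has medians of 134 to 152 CPM, with ACC1 KO 1 below the other libraries throughout.

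Set A cells with and without an Il4 UMI were compared within each library. Cells with Il4 made up 33.9, 36.0, 31.2 and 35.5% of set A cells. Tbx21 stood at 144, 158, 89.6 and 123 CPM in those with Il4 and 140.1, 152, 100.7 and 143 CPM in those without. Zbtb16 stood at 218, 238, 224 and 340.0 CPM with Il4 and 170 (169.9), 164, 132 and 137 CPM without. Ccl5 was lower in cells with Il4, at 357, 609, 835 and 756 CPM against 664, 961, 1401 and 1253 CPM. Pooled cells with an Il4 UMI thus held more Zbtb16 and less Ccl5 in each library. A Tbx21 UMI was found in 47.8, 56.1, 32.5 and 52.5% of the cells with Il4 and in 44.6, 54.4, 34.8 and 55.6% of those without. An Il4 UMI was also found in 2.69 to 4.29% of Rag1+ cells (median depths 2292 to 3485 UMIs), and a cell with an Il4 UMI need not express the gene. They were also somewhat deeper, at medians of 4789.5, 6485, 4716 and 7822 UMIs against 4616, 6152.5, 4414 and 7015 UMIs.

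Promoters of a few genes are printed to show the starts of a set A gene, a set B gene and a gene outside the rule that stood higher in set A cells. Each is the 250 bases before a RefSeq start (GRCm38.p6, given 5′ to 3′ on the gene's strand), with TGTGGT, the core letters bound by RUNX factors, or its reverse complement ACCACA in capitals. Tex2 is a set A gene (chr11:106612931-106613180, minus strand), Sidt1 a set B gene (chr16:44332839-44333088, minus strand) and Plac8 the gene outside the rule with the highest median ratio of set A to set B cells (chr5:100572206-100572455, minus strand).
Tex2: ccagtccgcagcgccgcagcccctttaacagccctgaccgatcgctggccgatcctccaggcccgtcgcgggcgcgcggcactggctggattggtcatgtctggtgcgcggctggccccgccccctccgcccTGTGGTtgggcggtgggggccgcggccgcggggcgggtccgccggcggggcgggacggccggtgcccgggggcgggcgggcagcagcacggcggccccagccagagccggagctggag
Sidt1: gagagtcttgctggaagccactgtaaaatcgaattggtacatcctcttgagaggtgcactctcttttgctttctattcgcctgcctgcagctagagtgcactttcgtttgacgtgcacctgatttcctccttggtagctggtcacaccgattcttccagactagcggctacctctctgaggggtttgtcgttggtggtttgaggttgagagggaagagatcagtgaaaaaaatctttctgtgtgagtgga
Plac8: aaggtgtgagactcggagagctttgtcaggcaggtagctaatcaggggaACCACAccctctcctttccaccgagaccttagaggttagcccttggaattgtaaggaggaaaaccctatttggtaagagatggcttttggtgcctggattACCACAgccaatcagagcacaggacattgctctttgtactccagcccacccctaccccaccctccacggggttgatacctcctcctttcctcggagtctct
Windows of 4 of the 7 set A genes and 6 of the 7 set B genes were in the table. The letters were present in 2 of 7 set A windows and in 0 of 13 set B windows, against 14% of all 32851 windows of the same length. The Tex2 window printed is among these 2. Plac8 has a second window, not printed, in which the letters were absent. In all, 11 letter strings were searched with the levels already known, and these matches are a description of few windows.

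Fewer cells of the gate were set A cells in each ACC1 KO library than in the WT library of the same number. The shares were 46.5% (95% Clopper-Pearson interval 45.0 to 47.9) and 23.8% (22.9 to 24.7) in WT 1 and WT 2, and 28.5% (27.3 to 29.8) and 14.6% (13.8 to 15.4) in ACC1 KO 1 and ACC1 KO 2. The genotypes overlapped, since ACC1 KO 1 lay above WT 2. The means were 35.1 ± 16.0% and 21.5 ± 9.83% (SD, n = 2 each), a difference of -13.6 percentage points with an exact two-sided permutation p of 0.6667, where the smallest possible p is 0.33. Within number 1 the difference was -18.0 points and within number 2 it was -9.22 points, and the ratio of ACC1 KO to WT was 0.613 in both. With cells thinned to 2500 UMIs the shares were 38.4, 18.8, 23.9 and 11%. Set B cells made up 12, 22.3, 18.3 and 32.3% of the gate, a difference of 8.11 points with an exact permutation p of 0.6667. Intervals cover counting error only, and without WT 1 the difference in set A cells shrank to -2.26 points. Some genes of the rule also differed between genotypes in gate cells that met neither rule. There Cd226 stood at 229, 193, 180 and 163 CPM and St6galnac3 at 313, 277, 249.5 and 253 CPM. Tex2 ran the other way, at 76.3, 84.6, 105 and 141 CPM. Fewer cells of this kind and altered levels of rule genes across the gate cannot be told apart here.

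**Figure D3:**
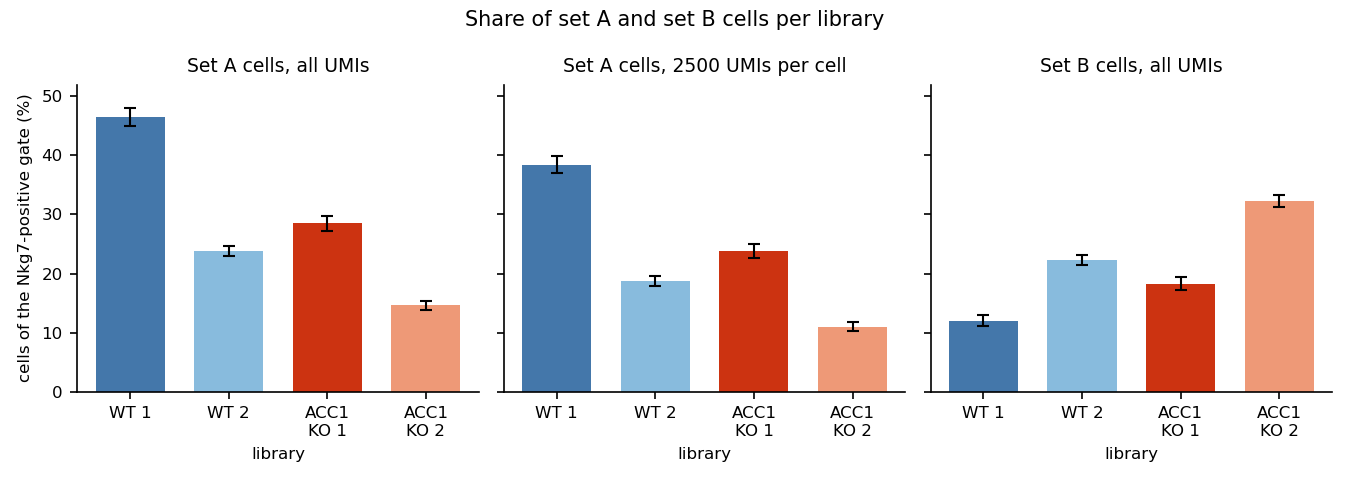
Bars give the percentage of gate cells that were set A cells (left, and in the middle after thinning to 2500 UMIs per cell) or set B cells (right) in each library, and error bars are 95% Clopper-Pearson intervals. The ACC1 KO bar lies below the WT bar of the same number in the first 2 panels and above it in the third.

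Within set A cells, genes of fatty acid and sterol synthesis were higher in the ACC1 KO libraries, and by list median they were also higher in set B cells. Summed UMIs were compared with the edgeR quasi-likelihood test. No gene of 11907 passed adjustment (0.0%), while 493 (4.14%) had an unadjusted p under 0.05. This fit did not use the replicate number, which goes with sex and depth. A fit with the number as a block, given with the dependence on processing, did call genes in both directions. Below, edgeR values and calls are those of the fit without the block. DESeq2 called 41 genes higher and 6 lower of 14455 (0.284 and 0.0415%). Leaving out WT 1, WT 2, ACC1 KO 1 or ACC1 KO 2 gave 14, 19, 29 and 42 genes higher and 4, 4, 2 and 16 lower in edgeR, with the lone library of a genotype taken to vary like the others. After scaling with TMM factors, 14.5% of genes were higher in both ACC1 KO libraries than in both WT libraries and 15.5% lower, and on unscaled CPM these shares were 9.0 and 25.1%. Counts of genes without overlap below are after TMM scaling and are read against 14.5 and 15.5%.

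Of 27 cholesterol synthesis genes and targets of SREBP-2, 24 were higher without overlap and 0 lower, with a median log2 fold change of 0.83 against -0.002 over all genes tested (0.74 within number 1 and 0.83 within number 2). In edgeR 0 of them passed adjustment, and DESeq2 called 9 higher. Of 18 fatty acid synthesis genes, 13 were higher without overlap and 0 lower, with a median of 0.78 (0.61 and 0.77 within the numbers), and DESeq2 called 7 higher. In set B cells the median log2 fold changes were 0.72 for the cholesterol list and 0.56 for the fatty acid list. The rise of these lists was therefore not particular to set A cells. Scd2, a desaturase of stearoyl-CoA whose products are monounsaturated, stood at 38.6 and 27.6 CPM in WT and 198 (198.5) and 199 (198.6) CPM in ACC1 KO set A cells. Both ACC1 KO values lay far above both WT values, and the log2 fold change was 2.68 ± 0.18 (SE; edgeR, adjusted p = 0.066; DESeq2 adjusted p = 1.56e-29). Scd1, its paralog, is named outside the rule for named genes because its mean is below 5 CPM. It had 1 and 1 UMI in WT and 54 and 54 in ACC1 KO set A cells, a ratio of UMI shares of 86.5 (95% interval for counting error, 23.4 to 724; edgeR adjusted p = 0.066).

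Srebf1, which encodes the SREBP-1 regulator of lipid synthesis, stood at 20.1 and 18.5 CPM in WT against 54.3 and 53.3 CPM. Acsl3, an acyl-CoA synthetase, stood at 7.34 and 8.30 CPM against 27.2 and 25.9 CPM, and Fads1, the Δ5 desaturase, at 3.77 and 2.68 CPM against 12.5 and 11.7 CPM. All were higher in both ACC1 KO libraries (edgeR adjusted p = 0.108, 0.123 and 0.276, in that order). In the sterol arm, Sqle (squalene epoxidase) stood at 1.64 and 1.44 CPM against 10.7 and 10.5 CPM, Insig1, the SREBP retention protein, at 7.63 and 9.02 CPM against 25.6 and 32.0 CPM, and Cyp51 at 12.2 and 12.2 CPM against 27.4 and 32.1 CPM. These differences were of like size within the numbers, for example 2.57 and 2.72 for Sqle in numbers 1 and 2. The sterol exporters Abcg1 and Abca1 stood at 97.4 and 88 CPM against 163 and 168 CPM, and at 50.4 and 29.7 CPM against 98.4 and 77.2 CPM. Of 22 fatty acid oxidation genes 1 was higher and 5 were lower without overlap, with a median of -0.11.

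**Figure D4:**
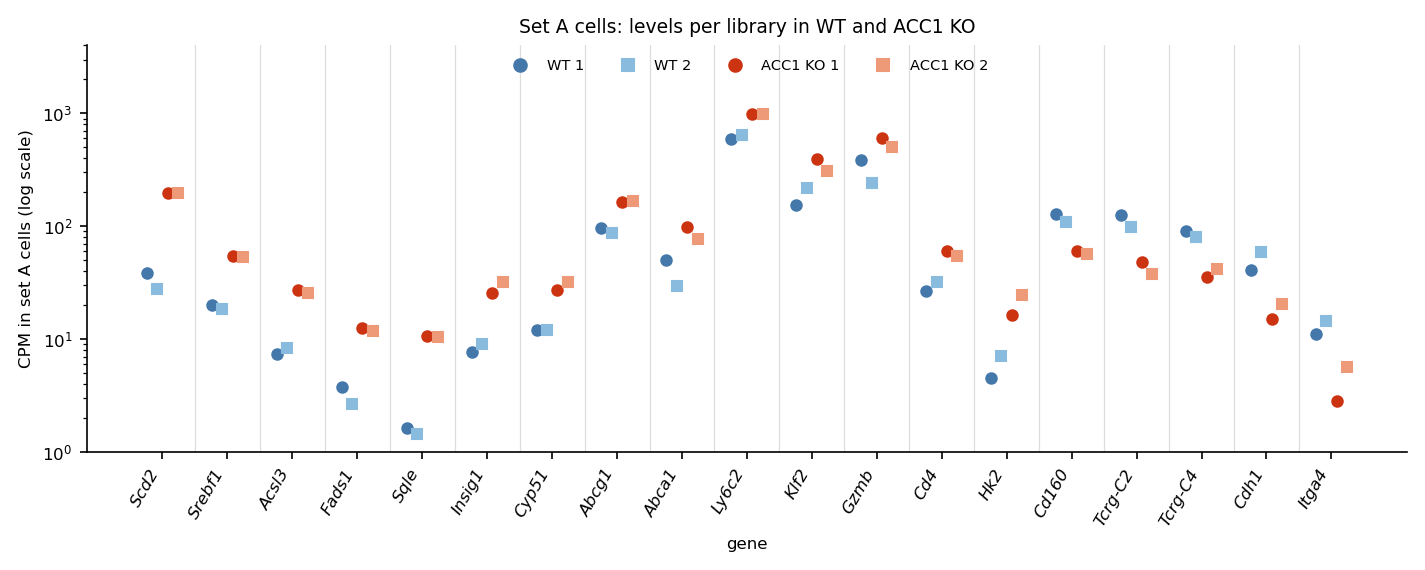
The CPM of 19 genes in set A cells is plotted on a log axis, with 1 point per library. For each gene shown the 2 ACC1 KO points lie on one side of the 2 WT points, above them from Scd2 to Hk2 and below them for Cd160, Tcrg-C2, Tcrg-C4, Cdh1 and Itga4 on the right.

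The promoters of 3 sterol genes that stood higher together are printed with CCAAT, the letters bound by NF-Y, or its reverse complement ATTGG in capitals. They are the 250 bases before the RefSeq start (GRCm38.p6) of Hmgcs1, which makes HMG-CoA (chr13:119690101-119690350, plus strand; 10.7 and 11.2 CPM in WT against 23.2 and 23.2 CPM in ACC1 KO set A cells), of Cyp51, the lanosterol demethylase (chr5:4104698-4104947, minus strand), and of Idi1, the isopentenyl diphosphate isomerase (chr13:8885356-8885605, plus strand; 9.46 and 9.41 CPM against 34.4 and 23.1 CPM).
Hmgcs1: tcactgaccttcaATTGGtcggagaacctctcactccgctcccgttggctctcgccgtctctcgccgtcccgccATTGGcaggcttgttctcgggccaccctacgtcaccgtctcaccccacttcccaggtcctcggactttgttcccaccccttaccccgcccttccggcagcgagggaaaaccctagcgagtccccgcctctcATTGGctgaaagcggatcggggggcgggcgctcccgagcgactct
Cyp51: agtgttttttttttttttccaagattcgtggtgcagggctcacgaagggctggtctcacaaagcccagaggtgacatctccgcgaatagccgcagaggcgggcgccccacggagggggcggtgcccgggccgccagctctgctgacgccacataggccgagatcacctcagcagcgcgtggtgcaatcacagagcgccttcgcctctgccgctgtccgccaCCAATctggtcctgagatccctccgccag
Idi1: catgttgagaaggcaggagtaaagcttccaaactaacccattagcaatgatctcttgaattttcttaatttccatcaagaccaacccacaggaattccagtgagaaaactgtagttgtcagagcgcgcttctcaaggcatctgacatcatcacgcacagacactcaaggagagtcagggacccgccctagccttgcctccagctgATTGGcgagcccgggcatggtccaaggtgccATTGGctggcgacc
CCAAT was present in 19 of 27 windows (70.4%) of the 21 sterol genes found in the table and in 16 of 28 windows (57.1%) of 22 fatty acid synthesis genes, against 33.8% of all windows. ATCACCCC, the first letters of a sterol regulatory element, was in 1 of these 27 windows (Srebf2) and 0 of these 28, and in 0.654% of all windows. No match says only that these letters are not in these windows.

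Some receptor and adhesion genes stood lower in ACC1 KO set A cells. Of 23 Ly49 and natural killer receptor genes tested, 9 were lower and 1 higher without overlap, and 13 overlapped. Of 21 chemokine receptor, integrin and egress genes, 9 were lower and 6 higher without overlap. Cd160, a receptor of iNKT1 cells, stood at 128 and 109 CPM in WT against 60.4 and 56.7 CPM (log2 fold change -0.93 ± 0.12, edgeR adjusted p = 0.276, DESeq2 adjusted p = 0.00508). T cell receptor γ constant genes had reads in all libraries: Tcrg-C2 stood at 126 and 98.0 CPM against 47.8 and 38.1 CPM and Tcrg-C4 at 91.8 and 80.9 CPM against 35.9 and 42.2 CPM, and 5 of 6 genes on the γδ T cell list were lower without overlap. Trdc, the δ constant gene, stood at 0.232 to 1.35 CPM, and the γ constant genes are close copies among which reads can be split. Cdh1 (E-cadherin) stood at 41.0 and 58.6 CPM against 15 and 20.6 CPM, and Itga4, an integrin chain, at 11.1 and 14.5 CPM against 2.85 and 5.68 CPM. DESeq2 called Cdh1 (adjusted p = 0.00195) and not Itga4 (adjusted p = 0.185), and edgeR called neither. These genes were lower in ACC1 KO set B cells as well. The log2 fold changes there were -0.995 for Cd160, -0.78 for Tcrg-C2, -0.70 for Tcrg-C4, -1.27 for Cdh1 and -2.31 for Itga4.

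Other genes that edgeR did not call were higher without overlap. Ly6c2, a surface marker of mature cells, stood at 593 and 647 CPM in WT against 980.0 and 982 CPM in ACC1 KO set A cells, Klf2 at 154 and 218 CPM against 395 and 306 CPM, and Gzmb, granzyme B, at 384 and 241 CPM against 606 and 506 CPM. Plac8 and Cd4 stood at 65.5 and 28.5 CPM against 147 and 67.7 CPM, and at 26.8 and 32.4 CPM against 59.9 and 54.1 CPM. Hk2, a hexokinase, stood at 4.54 and 7.12 CPM against 16.5 and 24.5 CPM. The log2 fold change of Klf2 was 1.36 within number 1 and 0.49 within number 2, so that its difference was mostly that of number 1. Klf2 and Ly6c2 were also higher in set B than in set A cells, and ACC1 KO set A cells carried more set B genes. With the cells of each library drawn to the same mix of differences between the sets, the log2 fold changes were 0.70 for Ly6c2 and 0.87 for Klf2, against 0.75 and 0.99 with all set A cells. The drawn cells were part of these same cells, and the draw evened only the difference in number of genes. For cell survival, Bbc3, which encodes the pro-apoptotic PUMA, stood at 34.0 and 28.9 CPM against 89.6 and 43.8 CPM (DESeq2 adjusted p = 0.0411). Of 22 pro-apoptotic genes 3 were higher and 2 lower, and of 16 anti-apoptotic genes 5 were higher and 0 lower. Bcl2 overlapped between genotypes, at 717 and 526 CPM against 1098 and 659 CPM. Among relatives of the set A genes, of 8 CD226 receptor and ligand genes 0 were higher and 4 lower, of 16 flippases and scramblases 1 was higher and 4 lower, and of 16 sialyltransferase genes 1 was higher and 1 lower. St8sia6, a sialyltransferase, stood at 16.8 and 24.5 CPM against 40.2 and 50.2 CPM (DESeq2 adjusted p = 0.0132).

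The genotype difference in set A cells was then tested against that in set B cells, with 8 sums and the library as a term. Of 12312 genes, 22 (0.179%) had a higher and 10 (0.0812%) a lower difference in set A cells (edgeR adjusted p under 0.05). The rule genes Setbp1, Dgkh and Atp8a2 were among them, which leaves 21 and 8. Ly6c2 stood at 593, 647, 980.0 and 982 CPM in set A cells and at 1415, 1250.1, 1280 (1279.8) and 1327 CPM in set B cells. Its difference was 0.68 ± 0.07 (SE, edgeR adjusted p = 1.8e-06), higher in set A cells within both numbers, and DESeq2 called this 1 gene. Scd2 stood at 29.7, 20.4, 229 and 246 CPM in set B cells. Its difference was -0.68 ± 0.11 (edgeR adjusted p = 0.000236), so that Scd2 was increased less in set A cells than in set B cells. Cd4 stood at 4.09, 7.49, 27.5 and 26.0 CPM in set B cells and had a difference of -1.11 ± 0.18 (edgeR adjusted p = 0.000157).

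As a description, for most of these genes the difference ran toward a smaller gap between set A and set B cells. By the median ratio over the 4 libraries, 17 of the 21 genes with a higher difference stood lower in set A than in set B cells. Of the 8 with a lower difference, 6 stood higher in set A cells. The ratio and the difference came from the same sums. The share of all genes tested that stood lower or higher by this ratio was not computed. Over the 9447 genes at 5 CPM or more the median log2 ratio was 0.047. Scd2, among these 6, changed order, with log2 ratios of 0.33 and 0.36 in WT and -0.20 and -0.30 in ACC1 KO. It is therefore not a plain case of a smaller gap. Runx1 had a log2 ratio of set A to set B cells of 1.51 and 1.38 in the WT libraries and 0.88 and 1.14 in the ACC1 KO libraries, and Rap1gap2, a regulator of the GTPase Rap1, had -2.25 and -1.87 against -1.35 and -1.19. Tox went the other way, with 0.89 and 1.23 in WT against 1.41 and 1.75. Set A cells of the ACC1 KO libraries lay nearer the limit of the rule, as given above. When the cells of each library were drawn to the same mix of differences between the sets, 28 of the 28 genes tested kept their sign and 20 were called. With the stricter rule (at least 4 genes and a difference of 3), 28 of 28 kept their sign and 6 were called. Both choices took parts of the cells already tested, and the genes were picked by that test. The kept signs are therefore no separate support, and the part of the mix of cells in these differences was not tested. Without WT 2 there were 69 higher and 58 lower genes, without ACC1 KO 2 there were 13 and 14, without ACC1 KO 1 there were 28 and 19, and without WT 1 there were 21 and 12.

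**Figure D5:**
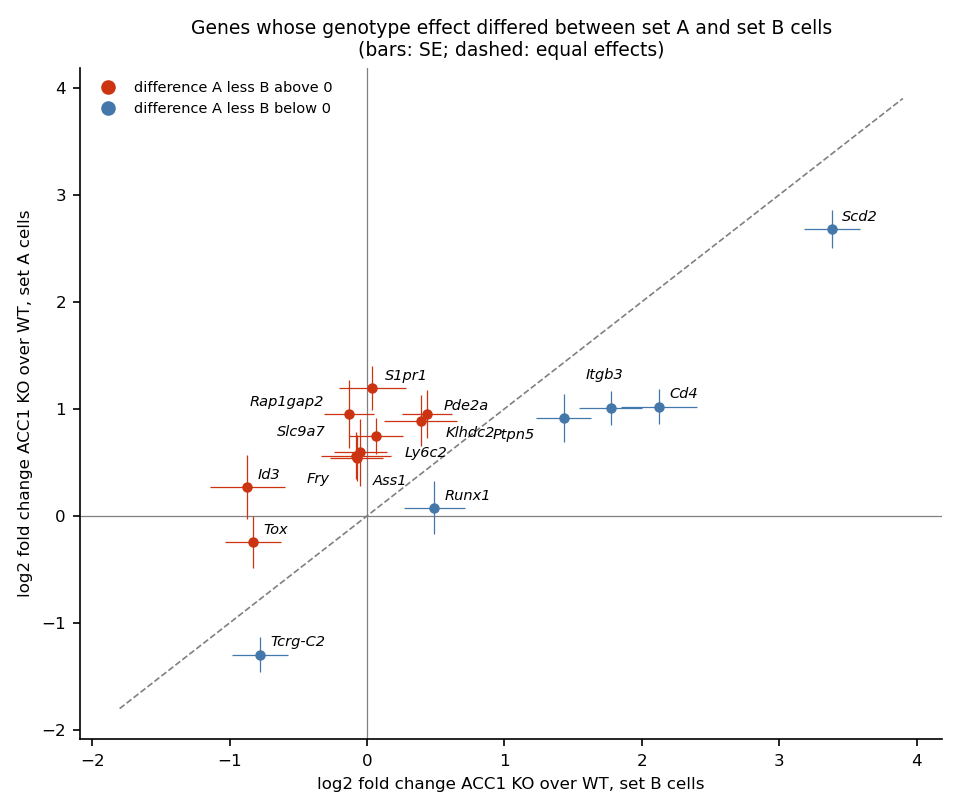
For the 16 named genes outside the rule, the log2 fold change of ACC1 KO over WT in set A cells (vertical axis) is plotted against that in set B cells (horizontal axis), with SE bars, and the dashed line marks equal changes. Genes above the line, such as S1pr1 and Ly6c2, had the larger value in set A cells, and genes below it, such as Scd2 and Cd4, the smaller.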

How the data were processed

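The authors deposited filtered matrices of raw UMI counts per gene and cell for 4 libraries (32285 genes), made with Cell Ranger 7.0.0 on mm10, per the submitters' processing notes. Whether introns were counted is not given in the sources used here.

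Cells were selected by the rule with Python 3.11.15 and their counts summed per library. Sums were tested with edgeR 4.0.16 (quasi-likelihood, TMM scaling, genes filtered by count, Benjamini-Hochberg adjustment, threshold 0.05). DESeq2 1.42.0 was an alternative. CPM are counts per 1000000 UMIs of the summed cells, and ratios of set A to set B cells are log2 with 5 CPM added. Fold changes within a number used a prior count of 2. Levels were not compared between genes. Thinning drew 2500 UMIs per cell. Doublets were scored by simulated doublets, at 0.8% per 1000 cells, and kept. Libraries of a genotype differed far beyond counting noise (chi-square per degree of freedom 37.7 in WT and 30.6 in ACC1 KO), so none was taken as a duplicate.

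Members and gene lists were chosen with earlier results of these data known. Genes named were up to 10 per direction by log2 fold change among called genes that averaged 20 CPM or more without overlap, up to 4 per list by p that averaged 5 CPM or more, up to 12 per direction by median ratio of set A to set B cells, and relatives of the set A genes. Other genes with values, among them Acaca, Scd1, Plac8 and Ccl5 between genotypes, the Il4 background and markers of the cell label, were added after their values were seen. The same-mix draw, the TMM overlap and leaving out libraries from the 2-fold counts were also added after seeing the data. On simulated counts the genotype fit recovered 94% (93.94) of 4-fold and 49% (48.98) of 2-fold changes. The fit of the difference between cell sets recovered 94% (93.94) and 68% (67.68) in that order. Whether these rates hold for the deposited libraries was not tested. There the genotype fit called neither Scd2 (log2 fold change 2.68, edgeR adjusted p = 0.066) nor Sqle (2.87, edgeR adjusted p = 0.108), both above 4-fold. Promoter windows are RefSeq's (GRCm38.p6), matched by symbol. Results for a few genes are not reported here.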

Additional observations from a re-analysis of the deposited data

Results flagged for a closer look

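The genotype difference in set A cells less that in set B cells passed the edgeR test of the difference itself for 16 named genes, given here as log2 values. It was higher in set A cells for Id3 (1.14), an inhibitor of E proteins, and for Rap1gap2 (1.05), S1pr1 (1.05), Ly6c2 (0.68), Ass1 (0.63), Slc9a7 (0.62), Fry (0.60), Tox (0.57), Klhdc2 (0.52) and Pde2a (0.50). It was lower for Cd4 (-1.11), Itgb3 (-0.86), Scd2 (-0.68), Ptpn5 (-0.65), Tcrg-C2 (-0.47) and Runx1 (-0.39). Id3 stood at 17, 23.1, 17.3 and 28.2 CPM in set A cells and at 25.6, 29.3, 10.3 and 17.2 CPM in set B cells of WT 1, WT 2, ACC1 KO 1 and ACC1 KO 2, so that the order of the cell sets was opposite in the 2 genotypes. DESeq2 called 1 of the 16 genes.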

How the results depend on the processing

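The lower share of set A cells in ACC1 KO kept its direction under every setting tried, at -10.7 to -13.8 percentage points, and at -24.9 to -2.26 points when 1 library was left out. In edgeR 0 genes differed between genotypes in set A cells. DESeq2 called 41 higher and 6 lower, no filter on low counts gave 135 and 54, the stricter rule gave 1 higher and sums thinned to the smallest total gave 1 higher. Leaving out 1 library gave 14 to 42 higher and 2 to 16 lower. For the difference between cell sets (22 higher, 10 lower), DESeq2 gave 1 and 0, all other cells of the gate in place of set B cells 14 and 4, the stricter rule 6 and 4, no filter 17 lower, and leaving out 1 library 13 to 69 and 12 to 58. The causes were not tested. The stricter rule gave 22 and 24 genes at least 2-fold apart between cell sets, in place of 13 and 13. None of the values recomputed changed sign.

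With the replicate number as a block, 493 genes were higher and 276 lower between genotypes, and the difference between cell sets gave 51 and 36. Deviations of same-numbered libraries correlated (r = 0.67 over genes), but with 2 pairs and no label for a shared animal or day the libraries share only a number, which goes with sex and depth.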

Other observations

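ACC1 KO 1 stood apart in single Ly49 genes, named after their values were seen. Klra4 stood at 50.3, 65.5, 0.271 and 43.4 CPM in set A cells of WT 1, WT 2, ACC1 KO 1 and ACC1 KO 2, and Klra6 at 25.9, 28.9, 5.42 and 17.9 CPM. Ly49 genes are close copies, and how reads were split among them is not known.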
